A study of Mus musculus with 2 samples.

Results

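Monocytes, macrophages and conventional dendritic cells were described here in tumour-draining inguinal lymph nodes of the mouse. Cells were chosen by their own transcripts. A cell was kept when it held at least 1200 UMIs (unique molecular identifiers, each counted as 1 captured RNA molecule) and at least 200 genes, with at most 25% of its UMIs from mitochondrial genes. It also had to hold at least 3 UMIs summed over Lyz2, Cd209a, Clec10a, Clec4a3, Clec4a1 and Itgax. At most 1 Siglech UMI, at most 1 UMI of Cd79a and Cd3e together, and no UMI of Prox1 or Egfl7 were allowed. This selected 96 of 8091 quality-passing cells. These 96 are called member cells below.

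The study set wild-type (WT) mice against mice labelled ATG5 LEC-KO, in which the autophagy gene Atg5 is named as deleted in lymphatic endothelial cells. The driver of the deletion, the tumour, and the age of the mice were not given in the labels used here. Each genotype was 1 library: 13 pooled nodes for WT and 9 pooled nodes for the knockout. Viable CD31+ CD45- Ter119- endothelial cells and CD45+ CD31- Ter119- immune cells were sorted and put together before sequencing, so shares of cells carry the sort and the pooling. With 1 library per genotype there was no test of genotype. Every interval below covers counting error only, and any difference between the libraries, genotype included, cannot be told apart from the pool of animals, the sort or the library.

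Myeloid cells of a lymph node take up antigen and show it to T cells. Type 1 conventional dendritic cells (cDC1) carry XCR1 and CLEC9A and are known for presenting the antigen of dead cells on MHC class I. Type 2 conventional dendritic cells (cDC2) carry SIRPA and often CD209A and CLEC10A, and are known for presenting peptides on MHC class II to CD4 T cells. Monocytes arrive from blood as classical cells with Ly6c2 and Ccr2 or as non-classical patrolling cells with Ace and Cx3cr1, and tissue macrophages express the complement C1q genes.

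There were 36 member cells of 3893 quality-passing cells in the WT library, a share of 0.925% (exact Clopper-Pearson 95% interval 0.648 to 1.28). The other library, labelled Atg5 LEC-KO, held 60 of 4198, or 1.43% (1.09 to 1.84), and the intervals overlap. Endothelial cells, cells with at least 3 UMIs of Egfl7 and Prox1, numbered 1042 and 515. Of all cells other than these, the member share was 1.26% (0.886 to 1.74) in WT and 1.63% (1.25 to 2.09) in the knockout-labelled library. The median member cell held 6723 UMIs and 2330.5 genes in WT, and 9194 UMIs and 2715 genes in the other library. The libraries as a whole held 23649554 and 23089918 UMIs over all barcodes. Of the quality-passing barcodes 14 occurred in both libraries, but none of these was a member cell. Among member cells with a sex call from Xist and Y-linked transcripts, 25 of 27 were male in WT (92.6%, 75.7 to 99.1) and 26 of 42 in the knockout-labelled library (61.9%, 45.6 to 76.4), so the libraries also differed in the sex of the cells.

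The rule's threshold lay near the cDC1-like cells described below. The median sum of the 6 marker genes was 40 UMIs in WT and 42 in the knockout-labelled library, but 31 of the 96 cells had a sum of at most 10. In cluster 1, the cDC1-like cluster, 3 of 4 WT and 14 of 16 knockout-labelled cells had such a sum, and the median was 4 and 8. At a sum of 3, just inside, there were 2 cells in each library. Just outside, at a sum of 2, there were 3 and 8 cells, which held a mean of 10.8 Cd74 UMIs against 139.8 in the 4 cells at a sum of 3.

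The myeloid label was checked against genes that the rule did not use. Csf1r, the receptor for macrophage colony-stimulating factor, was detected in 26 of 36 WT and 35 of 60 knockout-labelled member cells (72.2% and 58.3%), against 0.147% and 0.192% of B cells, which have a lower median depth of 2760.5 and 2761.5 UMIs. Lyz2, the lysozyme of myeloid cells and a gene of the rule, was in 30 and 52 member cells. S100a8 and S100a9, abundant transcripts of neutrophils, marked 7 cells: 4 in WT and 3 in the other library held between 187 and 1018 UMIs of S100a8 and S100a9, and the next highest member cell held 22. A further 6 cells, 2 and 4, held 4 to 21 UMIs of the natural killer (NK) cell genes Ncr1, Klre1 and Klrb1c, while no other member cell held more than 1. In 5 of these 6 Itgax was the one rule gene present. Without both kinds of cell, 30 and 53 member cells remained. The rule set Cd79a, Cd3e, Prox1 and Egfl7 low. Without these genes the 10 other B cell markers summed to 189 and 198 CPM (counts scaled to the same total of non-mitochondrial UMIs in each library), the 9 other T cell markers to 282 and 187 CPM, Cd8a and Il7r included, which dendritic cells can carry, and the 7 other endothelial markers to 61.7 and 38.8 CPM. The 6 mast cell and basophil markers had no UMI in either library.

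Clustering of the 96 cells gave 6 groups, which were compared with marker lists. The genes that lead a cluster describe it, since the same cells and genes made it, and no test was applied. Cluster 1, 4 WT and 16 knockout-labelled cells, was cDC1-like and led by Xcr1, Clec9a and Tlr3. Cluster 2, 12 and 13 cells, was cDC2-like, with Cd209a, Cd7, Cd4 and Clec10a among its 10 leading genes, and it also took in the 6 NK-marked cells, whose Ccl5 and Klrd1 lead it too. Cluster 4, 2 and 4 cells, was macrophage-like, led by C1qc, C1qb and C1qa. Cluster 5, 3 and 7 cells, was non-classical monocyte-like, with Ace and Spn. Cluster 0, 9 and 9 cells, was led by Spic, Il1rn and Ly6i and stayed unnamed, and so did cluster 3, 6 and 11 cells, which mixed the 7 neutrophil-marked cells with 10 cells that carried classical monocyte markers.

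**Figure D1:**
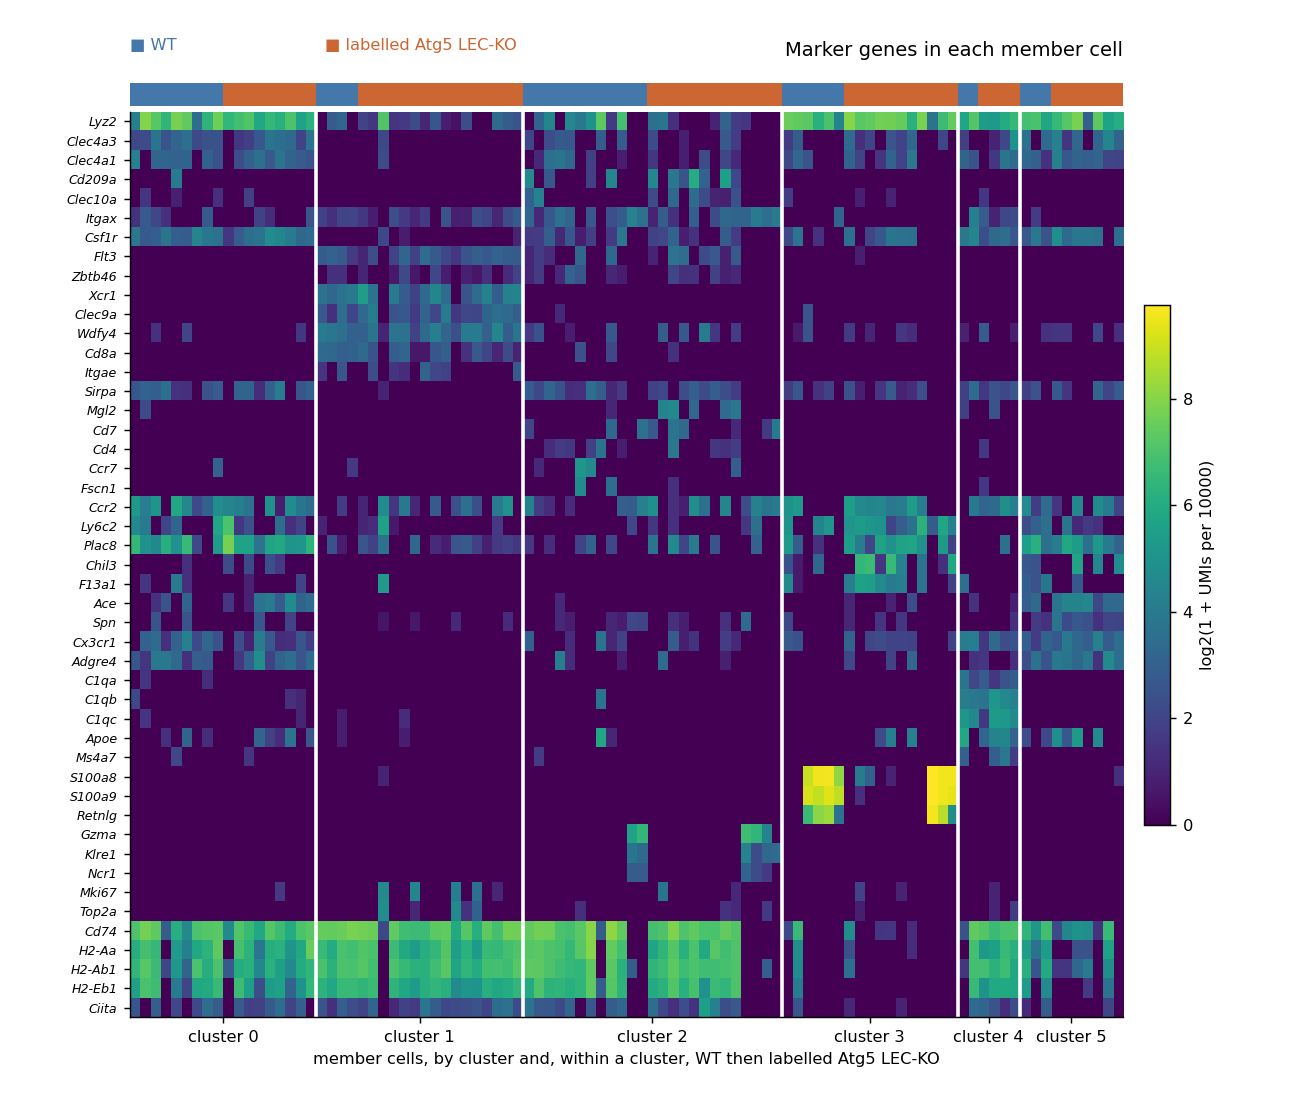
Marker genes (rows) in each of the 96 member cells (columns), as log2(1 + UMIs per 10000 UMIs of the cell), brighter for higher; the bar above gives the library and white lines part the 6 clusters. Clec9a fills all but 1 cell and Xcr1 all but 2 cells of cluster 1, the C1q genes fill cluster 4, S100a8 and S100a9 are bright in 7 cells of cluster 3, Klre1 marks 6 cells of cluster 2, and the class II genes near the bottom are dark in most of cluster 3.

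The cDC1-like cells shared nearly all of their markers. Of the 20 cells in cluster 1, 19 held Xcr1 or Clec9a. Xcr1, the receptor for the chemokine XCL1, was found in 4 of 4 such WT cells (49 UMIs, 1267 CPM) and 14 of 15 knockout-labelled cells (255 UMIs, 1208 CPM). Clec9a, a receptor for actin filaments exposed by dead cells, was found in all 19, at 621 and 682 CPM. Clec9a is not confined to these cells: plasmacytoid dendritic cells (at least 3 Siglech UMIs, and outside the rule) carried it at 161 and 199 CPM but had no Xcr1 UMI in either library. Wdfy4, needed for cross-presentation, was at 1216 and 1095 CPM, Naaa at 2509 and 2284 CPM, and the transcription factor Irf8 at 1940 and 1687 CPM. Of the 19, 18 held Cd8a and 9 also held Itgae (the CD103 integrin chain), and no cell held Itgae without Cd8a. The remaining cell of the cluster, from the knockout-labelled library, held neither Xcr1 nor Clec9a but 287 Lyz2, 100 Ly6c2 and 79 F13a1 UMIs, with 200 UMIs of cycling genes, so its transcripts were those of a cycling monocyte in place of a cDC1. No member cell held both Xcr1 and Cd209a, while 18 held Xcr1 alone and 12 Cd209a alone.

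The cDC2-like cells were more varied. After the NK-marked cells were set aside, 10 WT and 9 knockout-labelled cells remained. Not all of them had the transcripts of cDC2. Of the WT cells, 1 held 167 Lyz2 and 20 Csf1r UMIs. Another held 25 Lyz2 and 9 Apoe UMIs, with 0.126% of its UMIs from class II genes. Neither held a UMI of Flt3, Cd209a, Clec10a or Mgl2, and both are counted in the WT values. Sirpa, an inhibitory receptor, was detected in 10 of 10 and 8 of 9 of them, at 364 and 403 CPM. Cd209a, the lectin DC-SIGN, was detected in 4 of 10 WT cells at 535 CPM and in 7 of 9 of the others at 2002 CPM. Mgl2, a galactose-type lectin, held 1 UMI in 1 WT cell and 51 UMIs in 5 knockout-labelled cells. Cd4 was detected in 6 and 4 cells, and Il1r2, a decoy receptor for interleukin 1, in 6 and 6. Irf4 was sparse, with 2 UMIs in WT and 8 in the other library, and Esam and Dtx1 had none.

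Transcripts of mature migratory dendritic cells were found in few cells and unevenly. Ccr7, the receptor that guides dendritic cells into the node, and Fscn1, an actin-bundling protein of mature dendritic cells, together reached 2 or more UMIs in 5 WT cells (13.9%, 4.67 to 29.5) and 1 knockout-labelled cell (1.67%, 0.0422 to 8.94). The intervals overlap. With cells thinned to 3000 UMIs, the counts were 4 of 32 and 1 of 56. Of the 5 cells in WT, 1 held 47 Ccr7 and 34 Fscn1 UMIs. The others, and the knockout-labelled cell, held between 2 and 10 UMIs of 1 of the genes and none of the other. Of these WT cells, 1 was in cluster 0 and held 131 Lyz2 and 35 Ly6c2 UMIs, and 1 was in cluster 1 and held 14 Xcr1 UMIs. So the count is not one of mature dendritic cells alone. Class II genes took between 4.93% and 8.65% of the UMIs of these 6 cells.

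Monocyte transcripts ran through clusters 0, 3 and 5. In the 10 cells of cluster 3 without neutrophil markers, 2 in WT and 8 in the other library, Ly6c2 was at 1256 and 2645 CPM, Ccr2, the receptor for CCL2, at 3768 and 2598 CPM, F13a1 at 953 and 2630 CPM, and Fn1 (fibronectin) at 650 and 2692 CPM. Chil3, a chitinase-like protein, was at 217 and 5260 CPM. Cluster 5 held Ace, the angiotensin-converting enzyme, at 530 and 1458 CPM, Adgre4 at 648 and 1151 CPM and Cx3cr1 at 648 and 1074 CPM, each in at least 9 of 10 cells. Cluster 0 carried both sets: Ccr2 at 2815 and 1336 CPM, Ly6c2 at 1237 and 1351 CPM, Ace at 161 and 881 CPM and Adgre4 at 717 and 851 CPM. Among its knockout-labelled cells, 1 held 67 Ly6c2 UMIs, the next highest 15, and the others at most 5. Plac8 was higher in cluster 0, at 4518 and 6092 CPM, than in cluster 3, at 1906 and 3365 CPM. Il1rn, the interleukin 1 receptor antagonist, led cluster 0 at 717 and 308 CPM.

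The 6 macrophage-like cells all held C1qa, C1qb and C1qc, the chains of the complement recognition protein. C1qc was at 3302 CPM in the 2 WT cells and 3133 CPM in the 4 others, and C1qb at 1712 and 2511 CPM. Apoe, which carries lipids, was in 1 of 2 WT cells (66 UMIs) and 4 of 4 others (67 UMIs). Siglec1 had 2 UMIs in each library, and Cd163 had none.

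Marker UMIs counted without clusters gave shares that overlapped between the libraries. Xcr1 or Clec9a was present in 6 of 36 WT cells (16.7%, 6.37 to 32.8) and 15 of 60 knockout-labelled cells (25%, 14.7 to 37.9), and in 4 of 32 and 14 of 56 cells thinned to 3000 UMIs. A UMI of Cd209a, Clec10a or Mgl2 was present in 27.8% (14.2 to 45.2) and 23.3% (13.4 to 36.0). At least 3 C1q UMIs were present in 5.56% (0.680 to 18.7) and 6.67% (1.85 to 16.2). The Xcr1 or Clec9a cells of cluster 1 were 11.1% (3.11 to 26.1) of WT and 25% (14.7 to 37.9) of knockout-labelled member cells, and the cells of cluster 2 without NK markers 27.8% (14.2 to 45.2) and 15% (7.10 to 26.6). With a marker sum of at least 5 in the rule, all of cluster 1 went from 11.1% to 6.25% in WT and from 26.7% to 24.5% in the other library, so the WT share depended on the threshold. The cluster shares rest on the genes that differ between the cells and are given as a description.

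**Figure D2:**
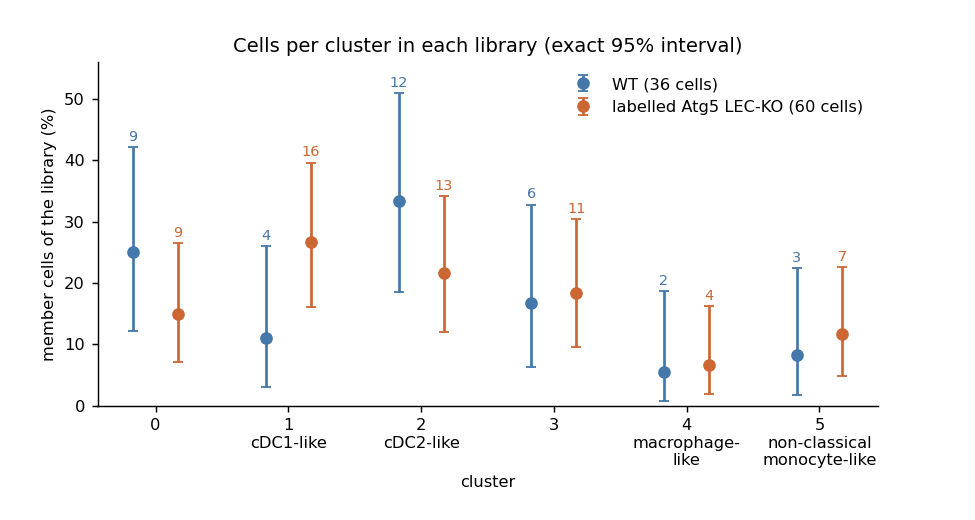
Percent of each library's member cells in each cluster, with exact 95% intervals that cover counting error; the number over each interval is the number of cells. The WT point is above the other in clusters 0 and 2 and below it in cluster 1, and the intervals of the libraries overlap in all 6 clusters.

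Antigen presentation on MHC class II differed in level between the subsets. MHC class II molecules are heterodimers, H2-Aa with H2-Ab1 and H2-Eb1 with its alpha chain, that are assembled with the invariant chain Cd74 and loaded with peptide by H2-DM. Transcription of all of these is driven by the coactivator Ciita, which binds no DNA itself and is recruited by factors on the X and Y boxes of class II promoters. H2-Aa lies on chromosome 17 at 34282744 to 34287823 on the minus strand (mm10), and H2-Eb1 on the same chromosome at 34305867 to 34316674 on the plus strand. H2-Ab1, the partner of H2-Aa, had no promoter window and was not searched. The stretch of each of the H2-Aa and H2-Eb1 promoters that holds the Y box core is shown, with the core CTGATTGG in capitals (RefSeq, GRCm38.p6, the same assembly as mm10, 5′ to 3′ on the gene's strand).
H2-Aa, chr17:34287827-34287914, minus strand: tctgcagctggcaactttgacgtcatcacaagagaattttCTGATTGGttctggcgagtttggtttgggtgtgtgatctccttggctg
H2-Eb1, chr17:34305765-34305852, plus strand: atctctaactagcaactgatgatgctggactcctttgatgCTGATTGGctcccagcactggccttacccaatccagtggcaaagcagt
The core was searched on both strands of windows from 250 bases before to 50 after each start. It was found for 4 of the 8 class II list genes with a window (H2-Aa, H2-Eb1, H2-Eb2 and H2-Oa), and in 4.10% of all 32851 windows. A match to these letters is a description and not a shown binding site.

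The 11 class II genes took several percent of the UMIs of most dendritic cells and little of those of cluster 3. In cluster 1 the median cell gave 5.28% of its UMIs to them in WT (3.77 to 5.62, 4 cells) and 4.24% in the other library (0.038 to 5.79, 16 cells). The lowest of these 16 was the cell without Xcr1 and Clec9a, and the next lowest was at 1.87%. In cluster 2 without NK-marked cells the median was 5.27% (0.126 to 8.65, 10 cells, with all but the lowest at 3.99% or more) in WT and 5.08% (3.33 to 6.81, 9 cells) in the other library. Cluster 0 spread widely, with medians of 3.72% (0.094 to 6.10) and 2.91% (0.302 to 5.10). The macrophage-like cells gave 0.087% and 5.09% in the 2 WT cells and 2.93% to 3.96% in the 4 others. Cluster 5 had medians of 2.42% and 0.234%. The 7 neutrophil-marked cells held no class II UMI, and the 8 knockout-labelled cells of cluster 3 without neutrophil markers stayed at or below 0.451%, while the 2 such WT cells were at 0.045% and 1.82%. Class II genes reached 1% or more of the UMIs in 24 of 36 WT cells (66.7%, 49.0 to 81.4) and 37 of 60 others (61.7%, 48.2 to 73.9).

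The class II genes did not all have the same order across the subsets. H2-Aa, the alpha chain of I-A, was at 10992 and 8824 CPM in the Xcr1 or Clec9a cells of cluster 1, at 14077 and 11059 CPM in cluster 2 without NK-marked cells, at 7117 and 6856 CPM in cluster 0, and at 3709 and 563 CPM in cluster 5. Ciita was at 491 and 550 CPM in those cells of cluster 1, 637 and 864 CPM in cluster 2, and 412 and 529 CPM in cluster 0. H2-Ob, a chain of the modulator H2-DO, was at 336 and 204 CPM in cluster 1 and at 22.8 and 115 CPM in cluster 2. H2-DMb2, a chain of the peptide-loading protein, had the opposite order, at 207 and 109 CPM in cluster 1 and 762 and 677 CPM in cluster 2. For comparison, B cells held Ciita at 509 and 555 CPM, H2-Ob at 806 and 817 CPM and H2-DMb2 at 1104 and 964 CPM. T cells, which do not make class II in the mouse, held Cd74 at 48.9 and 50.7 CPM.

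**Figure D3:**
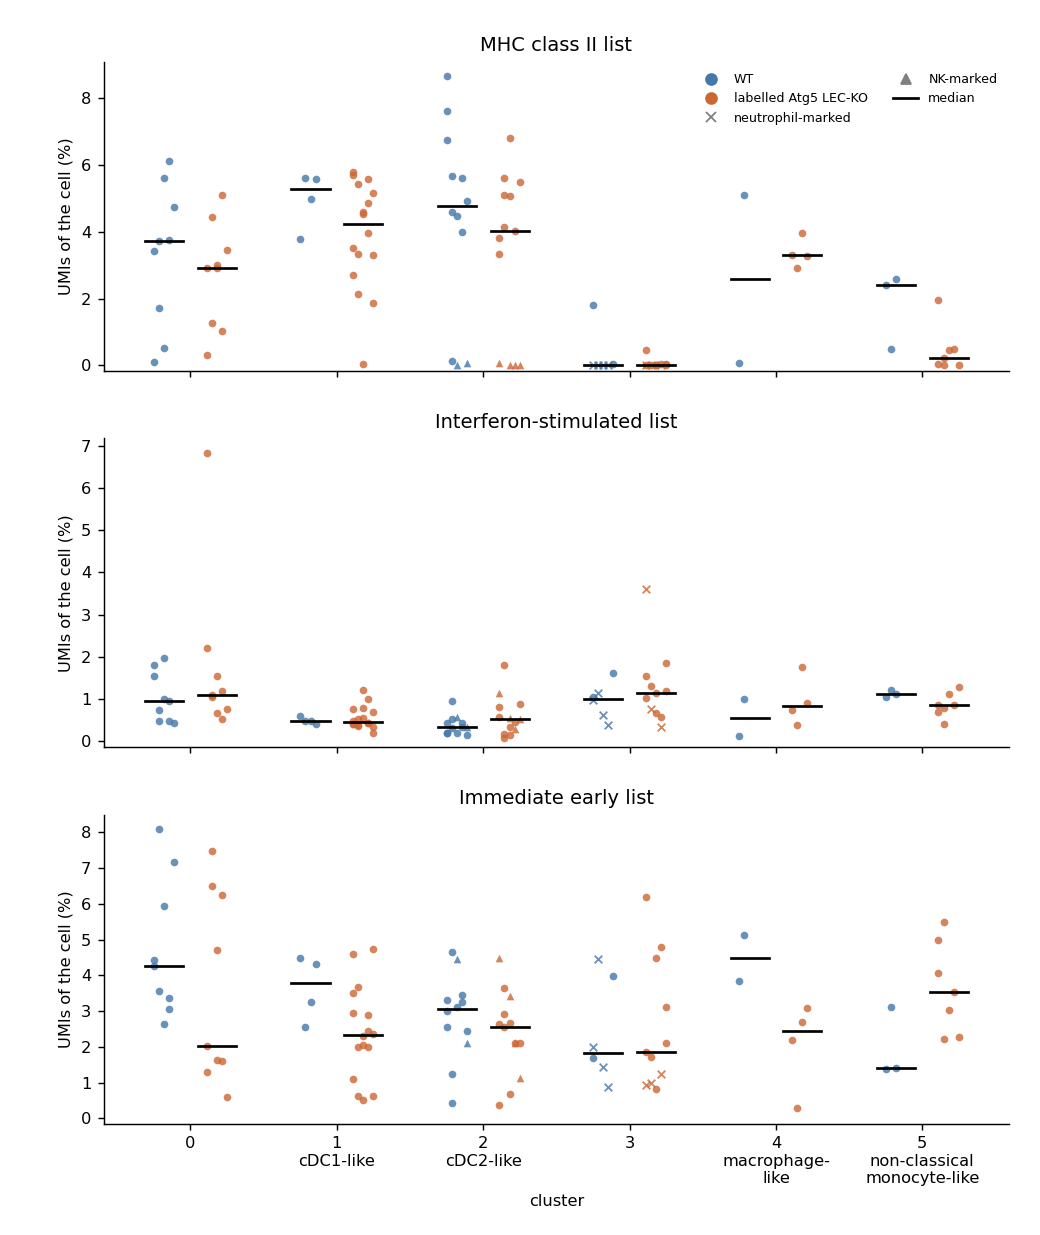
Share of each cell's UMIs (all genes) from the MHC class II, interferon-stimulated and immediate early lists, by cluster and library; each point is a cell, crosses are neutrophil-marked, triangles NK-marked, and bars are medians. Class II shares lie above 3% for most cells of clusters 1 and 2 and below 0.5% in all but 1 cell of cluster 3; 1 knockout-labelled cell of cluster 0 reaches 6.84% in the interferon list.

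The genotypes were compared over all member cells. A gene was counted as measured with at least 20 UMIs over both libraries, and called when the ratio of CPM, knockout-labelled library over WT, was at least 2 or at most 0.5 with an exact conditional binomial 95% interval that left out 1. Of 5776 genes measured, 401 were called higher (6.94%) and 214 lower (3.7%), and the median log2 ratio of all genes was 0.12, with 58.8% of the genes above a ratio of 1. With ratios centred on the median gene, 301 were called higher and 294 lower, so the excess of higher calls depended on the scaling. These calls describe a pair of libraries, and they rest on 36 and 60 cells of several kinds. No cluster had 15 cells in each library, the number set for ratios within a subset. Values by cluster, the few calls and summed ratios included, rest on fewer cells and are only a description beside the whole.

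Atg5, the gene named in the genotype, encodes a protein of the LC3-conjugation machinery (chromosome 10, 44268358 to 44364291, plus strand, mm10). It held 28 UMIs in 13 of 36 WT member cells (108 CPM) and 17 UMIs in 13 of 60 knockout-labelled cells (31.4 CPM), a ratio of 0.29 (0.15 to 0.55). It was at 38.8 and 37.1 CPM in endothelial cells, 66.1 and 56.2 CPM in B cells and 139 and 146 CPM in plasmacytoid dendritic cells. The deleted exon is not given in the labels, and a tag from the 3′ end of the RNA need not report it, so these levels do not check the genotype. Of the 27 genes of the autophagy list, 17 were measured. Atg101 and Atg3 were called higher and Atg5 and Gabarapl1 lower (all genes: 6.94% and 3.7%). The median log2 ratio of these 17 was -0.17.

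The summed level of MHC class II genes was lower in the knockout-labelled library over all member cells. All 11 were measured: 9 had a ratio under 1 and 2 above it, 2 were called lower (all genes: 3.7%) and none higher, and the median log2 ratio was -0.41. Summed over the list, the level was 37862 CPM in WT and 29257 CPM in the other library, a ratio of 0.77 (0.75 to 0.79). H2-DMb2 was called lower, at 316 against 140 CPM (ratio 0.44, 0.32 to 0.61), and so was H2-Eb2, at 92.6 against 46.2 CPM (0.50, 0.27 to 0.91). Cd74 was at 13073 and 10007 CPM (0.77, 0.73 to 0.80), H2-Aa at 8624 and 6326 CPM (0.73, 0.70 to 0.77), H2-Ab1 at 8304 and 7026 CPM (0.85, 0.80 to 0.89) and H2-Eb1 at 6267 and 4707 CPM (0.75, 0.71 to 0.80), none of them past the fold for a call. Ciita was at 451 and 427 CPM (0.95, 0.75 to 1.19). The size of the difference moved with the cells counted: the list median was -0.08 in cluster 0, -0.50 in the Xcr1 or Clec9a cells of cluster 1, -0.17 in cluster 2 without NK-marked cells, and -0.10 in male cells alone.

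The other presentation lists had few calls, and the costimulation list had the lowest median of them. Over all genes 6.94% were called higher and 3.7% lower, so a single call in lists of this size is not read as a result about the list. Among 23 MHC class I genes the median log2 ratio was 0.18, and 1 was called lower and none higher. Of 11 genes for class II processing, 1 was called lower (the protease gene Ctsd, 65.6 against 31.4 CPM), and Cst3, the protease inhibitor cystatin C, was at 4630 and 7043 CPM (ratio 1.52, 1.43 to 1.62). Of 10 cross-presentation genes, 1 was called higher, Clec9a, with a median of 0.16. Among 12 measured costimulation genes 2 were called lower and none higher, and the list median was -0.49. These 2 were Tnfsf4 (OX40 ligand) and Icosl, and without the 6 cells with Ccr7 or Fscn1 the list median became 0.028. Cd86 was at 293 and 238 CPM (0.81, 0.61 to 1.09) and Cd40 at 42.4 and 42.5 CPM.

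Interferon-stimulated genes were mostly higher in the knockout-labelled library. Type I interferon induces genes that carry the interferon-stimulated response element, and their products include antiviral effectors such as the Ifit proteins. A core of that element, TTTCNNTTT, was found on either strand for 27 of the 35 list genes with a promoter window and in 10.6% of all windows. These 27 include Ddx60, which was called lower, and Ifitm3, which was not called. The windows of 3 list genes called higher are shown, to give the letters that their starts share, with the core in capitals (RefSeq, GRCm38.p6, gene strand; overlapping matches run together, and a match on the opposite strand reads as the reverse complement).
Ifit3, chr19:34583333-34583455, plus strand: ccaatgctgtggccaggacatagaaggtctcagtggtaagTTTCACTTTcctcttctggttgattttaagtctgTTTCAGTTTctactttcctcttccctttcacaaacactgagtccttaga
Rsad2, chr12:26456511-26456612, minus strand: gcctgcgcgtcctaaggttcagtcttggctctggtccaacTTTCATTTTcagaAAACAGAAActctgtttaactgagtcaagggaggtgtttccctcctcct
Isg15, chr4:156200835-156200935, minus strand: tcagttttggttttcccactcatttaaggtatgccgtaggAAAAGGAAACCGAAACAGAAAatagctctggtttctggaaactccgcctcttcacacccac

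Of 44 genes in the interferon list 40 were measured: 33 had a ratio above 1, 15 were called higher and 1 lower (all genes: 6.94% and 3.7%), and the list median was 0.75 on the log2 scale. Ifit3, which held 1 UMI in WT and 47 in the other library (3.86 and 86.8 CPM), had a ratio of 22.5 with an interval from 3.84 to 907. Rsad2 (viperin) was at 38.6 CPM in WT and 209 CPM in the other library, a ratio of 5.41 (2.83 to 11.6), and was detected in 7 of 36 and 9 of 60 cells. Ifi205, of the HIN-200 family, was at 73.3 and 382 CPM (5.21, 3.26 to 8.84), in 4 and 23 cells. Stat2 was at 96.5 and 201 CPM (2.09, 1.34 to 3.36), in 13 and 35 cells. The abundant members moved less: Ly6e was at 1852 and 1677 CPM (0.91, 0.81 to 1.01) and Ifitm3 at 833 and 984 CPM (1.18, 1.01 to 1.39). Ddx60 was called lower, at 46.3 and 16.6 CPM. Ifit2 had no UMI in WT and 44 in the other library. Its ratio was 7.02 with a floor of 3 UMIs put in for WT, which is not a lower bound.

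Within the subsets the interferon list had these values. In cluster 0 its median was 1.03, with 13 of 26 genes called higher and none lower (all genes there: 8.62% and 7.46%). Its summed level had a ratio of 1.58 (1.43 to 1.74), but 1 knockout-labelled cell gave 6.84% of its UMIs to the list. The other such cells gave 0.509% to 2.21%, and the WT cells of cluster 0 gave 0.423% to 1.97%. The summed ratio without that cell was not computed. In cluster 2 without NK-marked cells the median over 12 genes was 0.84, and the summed ratio was 2.00 (1.72 to 2.33). There 1 knockout-labelled cell gave 1.79% of its UMIs to the list. The other knockout-labelled cells gave at most 0.864%, and the WT cells at most 0.943%. In the Xcr1 or Clec9a cells of cluster 1 the median over 13 genes was 0.74, against 0.29 for all genes there. But the summed ratio in these cells was 1.07 (0.91 to 1.25), an interval that holds 1. In cluster 3 without neutrophil markers the median was 0.05 and the summed ratio 0.90 (0.79 to 1.03). The differences between clusters were not tested. Per cell, the list took a median of 0.547% of UMIs in WT (0.121 to 1.97) and 0.749% in the other library (0.064 to 6.84), so the libraries overlap, and 24 of the 48 Ifit3 UMIs came from 1 cell. Ifi205 belongs to a family of close copies, and its reads may be shared with them. With the cell of highest share left out of each library, 38 genes were measured, 30 were above 1, 13 were called higher and none lower, and the median was 0.70. Of 14 measured interferon gamma-induced genes 4 were called higher and 1 lower (all genes: 6.94% and 3.7%). Cxcl9, a ligand of CXCR3, was at 185 and 678 CPM (3.66, 2.70 to 5.05). Iigp1, an immunity-related GTPase, had no UMI in WT and 62 in the other library, a ratio of 9.89 with the same floor put in for WT.

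Immediate early genes are those that cells switch on soon after stimulation. Of 31 such genes 27 had a ratio under 1, most of them short of a call, with 3 called lower (all genes: 3.7%) and none higher, and the list median was -0.45 on the log2 scale. Per cell the list took a median of 3.26% of UMIs in WT (0.440 to 8.09) and 2.33% in the other library (0.283 to 7.48). The list median was -0.59 in cluster 0, -0.47 in the Xcr1 or Clec9a cells of cluster 1 and -0.51 in cluster 2 without NK-marked cells, but 0.33 in cluster 3 without neutrophil markers. Egr1 was at 922 and 449 CPM (0.49, 0.41 to 0.58) and Fos at 3388 and 3208 CPM (0.95, 0.87 to 1.03).

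Of 22 NF-kB targets 19 had a ratio under 1, with 4 called lower (all genes: 3.7%) and none higher (6.94%), and their median was -0.66 on the log2 scale. Nfkbia, the inhibitor that NF-kB induces, was at 1038 and 491 CPM (0.47, 0.40 to 0.56), and Il1b at 1829 and 1197 CPM (0.65, 0.58 to 0.74). Nfkb2 was at 96.5 and 12.9 CPM (0.13, 0.049 to 0.32), in 13 of 36 and 6 of 60 cells. Within the Xcr1 or Clec9a cells of cluster 1 the list median was 0.29, opposite in sign, and the difference between clusters was not tested.

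**Figure D4:**
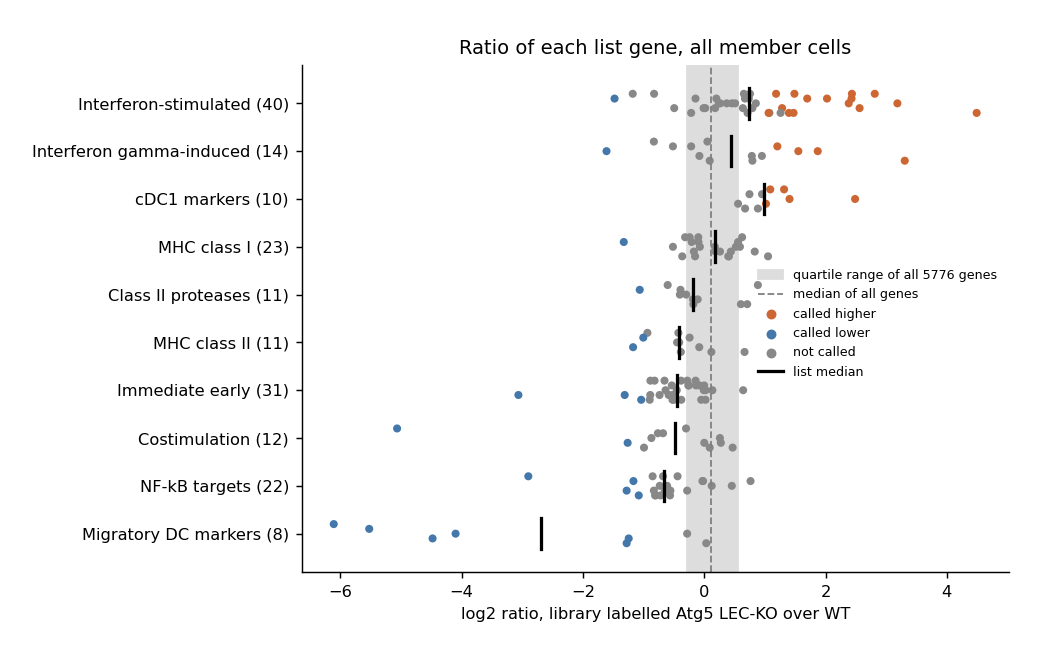
Log2 ratio, library labelled Atg5 LEC-KO over WT, of each measured gene of 10 lists in all member cells; black bars are list medians, the grey band runs from the lower to the upper quartile of all 5776 genes, and colours mark called genes. The interferon-stimulated median is 0.75 and the NF-kB target median -0.66; the migratory dendritic cell genes reach furthest to the left.

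Many of the genes with the largest ratios belong to the cell cycle. Cycling transcripts (5 or more UMIs of the marker list) marked no WT member cell (0 of 36, exact 95% interval up to 9.74%) and 8 of 60 in the other library (13.3%, 5.94 to 24.6), and 0 of 32 and 8 of 56 after thinning. Of the 8 cells marked among the 60, 4 were in cluster 1 and held 72 to 200 UMIs of cycling genes, and the others held 5 to 20. Among the 12 highest called genes were Top2a (topoisomerase; 2 and 149 UMIs; 35.7, 9.70 to 297), Cenpe, H2afx, Prc1, Kif23 and Tpx2. Mki67 had no UMI in WT and 170 in the other library, and Pclaf none and 91. Their ratios were 27.1 and 14.5 with the floor in place of no UMI, and these are not lower bounds. Enpp4, Hspb1, Rbl1 and Ifit3 completed the 12. Without the cycling-marked cells, which Mki67, Top2a and Pclaf helped to pick, Enpp4, Hspb1, Ifit3 and Rbl1 were still called higher, and Cenpe, H2afx, Prc1, Kif23 and Tpx2 were not. Of the 48 Hspb1 UMIs, 35 came from 1 cell.

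The 12 lowest called genes included the mature dendritic cell genes. Ccr7 held 64 UMIs in 5 WT cells and 6 UMIs in 1 cell of the other library (247 and 11.1 CPM; 0.045, 0.016 to 0.10), Fscn1 44 and 2 UMIs (0.022, 0.0026 to 0.083), and Il4i1, an amino acid oxidase, 33 and 1. For 6 of the 12, namely Il4i1, Fscn1, Tnfsf4, Ccr7, Il7r and Arap2, the same WT cell of cluster 2 held the most UMIs. Without the 6 cells picked by Ccr7 or Fscn1, the other 4 of these genes were not called, whereas Lyz1, Cd63, Slpi, Gadd45b, Nfkb2 and Ccl12 still were. Of the 71 Slpi UMIs, 69 were in neutrophil-marked cells, and without neutrophil- and NK-marked cells 1 UMI was left in each library. A single WT cell of cluster 2 held 112 of the 177 Lyz1 UMIs, and without it the ratio was 0.15 (0.078 to 0.26) in place of 0.048. A single WT cell of cluster 4 held 77 of the 79 Ccl12 UMIs. Lyz1 held 161 UMIs in 6 WT cells and 16 UMIs in 11 others, and Lyz2, with which it shares sequence, was at 7783 and 5835 CPM (0.75, 0.71 to 0.79), so reads of the pair may be split between them.

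Several subset markers differed between the libraries. Over all genes 58.8% had a ratio above 1, and 6.94% were called higher and 3.7% lower. All 10 measured cDC1 markers had a ratio above 1 and 5 were called higher, among them Xcr1 (189 and 471 CPM; 2.49, 1.83 to 3.45) and Tlr3 (27.0 and 151 CPM; 5.61, 2.60 to 14.4), beside 4 and 15 cells with Xcr1 or Clec9a in cluster 1. Chil3 was at 65.6 and 862 CPM (13.1, 8.12 to 22.8), beside 2 and 8 classical monocyte cells in cluster 3. Adgre1 (F4/80) was lower, at 282 and 88.6 CPM (0.31, 0.21 to 0.46). Clec10a was at 112 and 53.6 CPM (0.48, 0.28 to 0.83), and with the cell of most Clec10a UMIs left out the ratio was 1.12. In counts summed over all member cells alone, fewer cells of a kind and less RNA per cell cannot be told apart. By cluster, as given above, the level of Xcr1 in the Xcr1 or Clec9a cells of cluster 1 was similar in the libraries. Chil3 in the cells of cluster 3 without neutrophil markers was higher in the knockout-labelled library, with 116, 99 and 97 UMIs in its highest cells. What made the summed ratios was not tested.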

How the data were processed

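Per the file headers, the authors ran the BD Rhapsody WTA Analysis Pipeline 1.11 against mm10, with intronic reads counted, and deposited whole-number counts of UMIs (RSEC-adjusted molecules) per barcode and gene, without normalization. Barcodes were not filtered in these tables. Groups came from the genotype labels. Member cells were taken by the rule given above; the members and gene lists were chosen with earlier results of these data known. Cells were scaled to 10000 UMIs, and 1000 variable genes (without mitochondrial, ribosomal protein, immunoglobulin, T cell receptor, haemoglobin and sex-linked genes), 15 components and 10 neighbours went into Leiden clustering at resolution 1 (scanpy 1.11.5). Scrublet called 28 (0.719%) and 31 (0.738%) of the quality-passing cells doublets, none of them a member cell, and no cell was removed. Levels are CPM without mitochondrial genes; shares per cell are of all UMIs. With 1 library per genotype no p-value was computed, and ratios carry exact conditional binomial intervals. These were run on simulated counts drawn independently for each gene, as the intervals assume. That run does not cover UMIs that gather in single cells. Genes named were those of the rule, all class II genes, fixed subset markers, the 12 highest and 12 lowest called genes with at least 30 UMIs, and the most abundant and extreme members of each list; Atg5 and some other list genes were named after their values were seen. Alternatives changed the member rule, clustering, scaling, UMI minimum, weight of cells and sex of cells. Promoter windows came from RefSeq (GRCm38.p6).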

Additional observations from a re-analysis of the deposited data

How the results depend on the processing

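The few cells limit every value. With at most 10% mitochondrial UMIs the member share was 1.46% in WT and 2.38% in the knockout-labelled library, since many other cells leave the denominator. With a minimum of 50 UMIs per gene, 179 genes were called higher and 93 lower, fewer being tested. The class II median was -0.53 with ratios centred on the median gene and -0.10 in male cells alone. The costimulation median became 0.028 without the cells with Ccr7 or Fscn1, and Arap2 became 0.056 without the cell that held most of its UMIs, both on the log2 scale and opposite in sign; these settings were chosen after seeing the data, as were the settings without neutrophil-, NK- or cycling-marked cells, without the cell of highest list share, and the mean over clusters 0, 1 and 2. Under all alternatives run, the interferon, immediate early and NF-kB medians kept their sign. Cluster 5 merged into other clusters at resolution 0.5, with 10 components, with at least 2000 UMIs and with at most 10% mitochondrial UMIs, and cluster 4 did so with no Cd79a or Cd3e UMI allowed. Cluster 4, the macrophage-like cluster, held 5.56% of member cells in WT and 6.67% in the other library. The cluster matched to it held 18.8% and 7.55% at a marker sum of 5, and 17.1% and 6.67% at 2000 UMIs. It held 14.3% and 5.36% at 10% mitochondrial UMIs and 23.3% and 11.3% without neutrophil- and NK-marked cells, which turns the order of the libraries. These re-made clusters do not count macrophage-like cells, since only 2 WT member cells held 3 or more C1q UMIs. With ratios centred on the median gene 301 genes were called higher and 294 lower. A mean over subsets with 15 or more cells in each library could not be formed, as no cluster had them, and female cells alone were not run, with 2 in WT. No paired analysis was possible because each genotype was 1 library.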
